A study of Mus musculus with 69 samples.

Results

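The renin-angiotensin system was followed through 8 genes chosen by symbol, namely Ren1, Agt, Ace, Agtr1a, Agtr1b, Atp6ap2, Mme and Enpep, of 24411 genes in the count table. They were read in 69 RNA sequencing libraries of mouse kidney. Libraries of newly made RNA came from Hoxb7Cre;UPRTf/+ and Atp6b1v1Cre;UPRTf/+ mice (the latter is the spelling of the labels for the Atp6v1b1 driver). In these mice Cre switches on Uprt, an enzyme that puts injected 4-thiouracil (4-TU) into nascent RNA, in the collecting duct (Hoxb7Cre) or more narrowly in its intercalated cells (Atp6b1v1Cre). All mice of the pulldown groups carried Cre and Uprt and received 430 mg/kg of 4-TU 4 hours before dissection, controls included.

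At 5.5 months of age the Hoxb7 pulldown groups held 4 male and 4 female controls, 4 males and 3 females after ischemia (iAKI), and 3 males and 4 females after volume depletion (vAKI). The Atp6b1v1 groups held 4 male and 4 female controls, 3 and 3 after ischemia, and 4 males and 3 females after volume depletion. Controls of 3 months added 2 Hoxb7 females and 3 Atp6b1v1 males. Ischemia was 10 minutes of clamping of both renal pedicles, with labelling 24 hours later, and volume depletion was 72 hours of restricted water and food. Untagged whole kidney RNA without pulldown made up 21 control libraries of the same genotypes, 10 of Hoxb7Cre;UPRTf/+ and 11 of Atp6b1v1Cre;UPRTf/+ mice, from 10 females and 11 males. Of these, 2 females and 3 males were of 3 months and the others of 5.5 months, and the labels give the 4-TU dose for them as well. The driver's own boundaries set which cells are labelled, and RNA of other cells was lower in the pulldown but still counted there.

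Angiotensinogen, the product of Agt, is cut by renin to angiotensin I, which angiotensin converting enzyme (Ace) turns into angiotensin II. Angiotensin II acts on type 1 receptors, of which the mouse has 2, Agtr1a and Agtr1b, to constrict vessels and retain salt. Aminopeptidase A (Enpep) and neprilysin (Mme) break angiotensins down, Atp6ap2 encodes the prorenin receptor, an accessory part of the proton pump, and the whole system is known for its activation when blood volume falls.

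Promoters are shown for Agt and for the somatic form of Ace, the members whose levels changed most after injury. They are RefSeq windows on GRCm38.p6, from 250 bases before to 50 bases after the start site, read along the strand of the gene, with TATAAA (or its reverse complement) in capitals. The Agt window is chr8:124569657-124569956 (minus strand) and the Ace window is chr11:105967698-105967997 (plus strand).
Agt: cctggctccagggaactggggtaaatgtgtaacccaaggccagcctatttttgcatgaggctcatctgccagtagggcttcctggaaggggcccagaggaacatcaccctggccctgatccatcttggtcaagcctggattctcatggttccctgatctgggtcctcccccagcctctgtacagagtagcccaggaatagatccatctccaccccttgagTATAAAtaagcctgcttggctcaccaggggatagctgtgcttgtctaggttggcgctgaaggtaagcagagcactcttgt
Ace: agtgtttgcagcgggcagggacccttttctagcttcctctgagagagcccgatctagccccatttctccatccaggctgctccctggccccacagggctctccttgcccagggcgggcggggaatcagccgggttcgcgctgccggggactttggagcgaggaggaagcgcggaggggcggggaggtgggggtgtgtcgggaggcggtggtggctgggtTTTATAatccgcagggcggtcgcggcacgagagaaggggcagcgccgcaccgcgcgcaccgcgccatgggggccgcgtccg

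The TATAAA match of Agt lay on the gene's own strand at position -30 from the start site, and that of Ace on the opposite strand at -31. The 7 members with an entry had 10 windows, and TATAAA stood on either strand in 5 of these 10, 1 each of Ren1, Agtr1b, Enpep, Agt and Ace, and in 13.6% of all 32851 windows of that length. The steroid receptor half-site AGAACA, searched on both strands, stood in 1 of the 10, that of Atp6ap2, against 19% of all windows. The cyclic AMP response element TGACGTCA, a palindrome, stood in 1.79% of all windows and in none of the members' windows. A match describes these letters only.

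Total counts ran from 12618062 to 30305464 per library. Principal cell markers were higher in Hoxb7 pulldown than in total RNA for 5 of 5 genes. Intercalated cell markers were higher in the Atp6b1v1 pulldown for 3 of 5, and proximal tubule markers were lower in both for 7 of 8. Of all tested genes 53.9% were higher in Hoxb7 and 54.5% in Atp6b1v1 pulldown, at any size of change. The shares called lower, by the rule given further on, were 17.9% and 16.4%. Library numbers in the labels fell into 3 series (here A from 1 to 40, B from 65 to 85, and C above these), and the Hoxb7 ischemia and volume depletion libraries were all of series A. Cyp11b1, a steroid synthesis enzyme of the adrenal cortex, was at or over 1 CPM (reads of a gene per 1000000 counted reads) in 21 libraries, 18 of 33 female and 3 of 36 male ones. This limit, here and in what follows, was set on CPM before TMM scaling, and the lowest of the 21 libraries stood at 0.995 CPM on the scaled values printed elsewhere. The 21 total and the 21 control pulldown libraries have the same makeup of driver, sex, age and series, and the labels do not say whether a mouse gave both. If so, the libraries are not independent in the comparison of pools or in these counts. The p-values measure the spread between these libraries.

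Renin could not be read from the table. Ren1 (chr1:133350510-133360325, GENCODE vM21 on GRCm38) is listed at 0 in all 21 libraries of total kidney RNA and had 3 reads in all 69 libraries, each in a different library. The row of its close copy Ren2 held 9 reads. A count of 0 over the 475937013 counts of the total libraries allows up to 0.0063 CPM as far as counting error goes, but reads that fit several places or several genes are left out by default counting, so the row is no measure of renin mRNA.

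In total kidney RNA of control mice the other members ranked, per kilobase of exon, from Atp6ap2 at 81.6 ± 9.32 CPM per kilobase (SD, n = 21) through Ace at 62.8 ± 13.0, Enpep at 49.4 ± 12.7, Agt at 47.2 ± 13.4 and Mme at 31.5 ± 10.5 to Agtr1a at 16.6 ± 1.29. Enpep and Agt lay within each other's spread. Agtr1b stood at 0.0568 ± 0.0791 CPM per kilobase, at 18 reads or fewer in any library. Type 1 receptor reads were counted almost wholly as Agtr1a, although the open reading frames of the pair, 1080 bases each, are 90.8% identical with a longest shared run of 66 bases, so part of the reads of either could be left out or misplaced.

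Of the 6 members with more than a few reads per library, all were at a lower mean in the collecting duct pools than in the whole kidney. Ace stood at 332 ± 68.7 CPM in total RNA (SD, n = 21), 26.7 ± 5.30 in Hoxb7 pulldown (n = 10) and 34.5 ± 10.5 in Atp6b1v1 pulldown (n = 11). Enpep went from 233 ± 59.6 to 28.4 ± 9.45 and 25.9 ± 9.07 CPM, and Mme from 364 ± 121 to 71.4 ± 14.2 and 74.4 ± 19.6 CPM. Pulldown and total libraries did not overlap for any of these 3 peptidases, which are known brush border or vessel enzymes. Nor did they for Atp6ap2, at 178 to 261 CPM in total RNA against 73.3 to 106.3 and 70.2 to 129.3 CPM. Agt and Agtr1a overlapped total RNA in Atp6b1v1 but not in Hoxb7 pulldown. The share of all genes without overlap was not counted. In the same libraries the summed level of the 8 proximal tubule markers was 8470 to 17460 CPM in total RNA. It was 1664 to 4258 CPM in Hoxb7 pulldown and 1346 to 4225 CPM in Atp6b1v1 pulldown. In bulk RNA fewer cells of a type and less RNA per cell cannot be told apart.

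With sex as a covariate, 5 of 8 members were called lower in Hoxb7 pulldown (an adjusted p under 0.05 together with a change of 1 or more on the log2 scale), where 17.9% of all 21175 tested genes were called lower (32.5% in either direction), and 5 of 8 were called lower in Atp6b1v1 pulldown, where 16.4% were (27.7% in either direction). These 2 comparisons share the total libraries. The log2 fold changes were -3.52 ± 0.13 (SE) and -3.28 ± 0.13 for Ace, -2.96 ± 0.18 and -3.13 ± 0.17 for Enpep, and -2.31 ± 0.13 and -2.14 ± 0.12 for Mme. Agt fell by 2.19 and 1.84 on the same scale and Atp6ap2 by 1.27 and 1.10, and the largest of these 10 adjusted p-values was 4.02e-10 (edgeR quasi-likelihood test). Agtr1a came closest to its whole kidney level, at -0.89 ± 0.083 and -0.43 ± 0.078, both under the fold threshold (adjusted p = 3.67e-13 and 4.19e-06). The median over all tested genes was 0.107 in both comparisons.

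**Figure D1:**
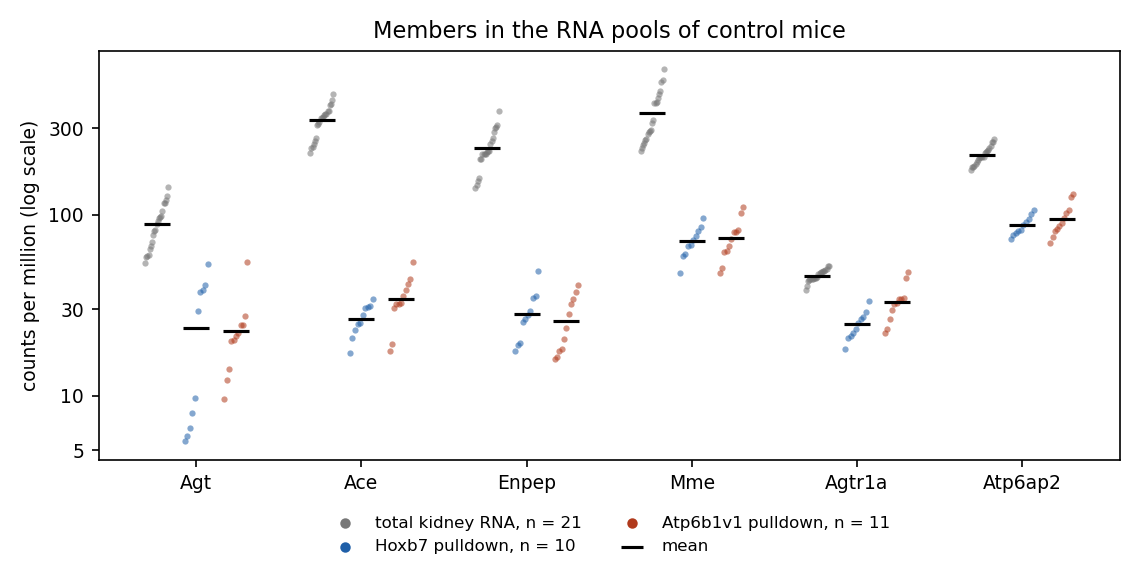
Level of 6 members in control mice, in CPM on a log axis, with 1 point per library and a bar at the mean, for total kidney RNA, Hoxb7 pulldown and Atp6b1v1 pulldown. Ace, Enpep, Mme and Atp6ap2 stand apart from total RNA in every pulldown library, and Agtr1a lies closest to it (46.2 CPM in total RNA against 24.8 and 32.97).

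Between the pulldown pools Agtr1a differed, at 32.97 ± 7.99 CPM in Atp6b1v1 pulldown against 24.8 ± 4.45 in Hoxb7 pulldown, a log2 difference of 0.46 ± 0.091 that passed the test but not the fold threshold (edgeR adjusted p = 2.65e-04). None of the 8 members was called in this comparison by edgeR or by DESeq2, against 4.11% of all genes. An unadjusted p under 0.05 was held by 2 members and by 4334 of all 21175 tested genes. In males alone Agt was higher in the Atp6b1v1 pool, by 1.22 ± 0.22 (adjusted p = 4.15e-04), and in females alone the difference was -0.11 ± 0.36.

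Angiotensinogen mRNA rose with volume depletion in males of both pools. In male Hoxb7 pulldown, Agt stood at 8.05, 6.68, 6.02 and 9.79 CPM in the 4 controls, at 9.79, 10.6, 9.98 and 8.52 CPM after ischemia and at 91.2, 103.3 and 109.1 CPM after volume depletion. Every volume depleted library lay above every other male library of the Hoxb7 driver, and control and ischemic libraries overlapped. Both injuries are set against the same controls here and in each comparison that follows. The rise over control was 13.3-fold, a log2 fold change of 3.73 ± 0.31 (SE, edgeR adjusted p = 3.51e-08), and against ischemia it was 3.37 ± 0.30 (adjusted p = 9.72e-08). After ischemia Agt differed from control by 0.36 ± 0.28 (adjusted p = 0.53).

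Agt (chr8:124556534-124569706) was the single member called in this comparison, 1 of 8 against 16.4% of all genes, or 9.61% counting only higher genes. No member of 8 was called after ischemia in male Hoxb7 pulldown, by edgeR or DESeq2, none had an unadjusted p under 0.05, and 2.3% of all genes were called. Among all tested genes 4364 had an unadjusted p under 0.05. In male Hoxb7 controls and after volume depletion the summed hepatocyte markers, of a cell type that makes most circulating angiotensinogen, were 9.74 to 13.7 and 10.1 to 15.5 CPM, the 8 adipocyte markers 61.4 to 159 and 55.7 to 99.1 CPM, and the proximal tubule markers 1879 to 3286 and 2447 to 2683 CPM. None of the 8 proximal tubule markers was called there by edgeR, none had an unadjusted p under 0.05, and the ranges of these 3 lists overlapped between the groups, although 5 of 8 adipocyte markers were called lower. The summed adrenal cortex markers were 22.9 to 105.2 and 22.9 to 27.7 CPM, with 3 of 6 called lower, and 4 of 5 principal cell and 4 of 5 intercalated cell markers were called lower as well. Summed principal cell markers did not overlap between these controls and volume depleted males, at 2608 to 3322 and 1050 to 1158 CPM. Endothelial, podocyte, fibroblast, macrophage and thick limb sums did not overlap either. Sums of intercalated cell, neutrophil, and mural and renin cell markers did overlap. Endothelial markers went from 119.8 to 244 CPM in controls to 274 to 379 CPM, podocyte markers from 155 to 186 to 233 to 283 CPM, fibroblast markers from 29.1 to 59.2 to 66.8 to 99.4 CPM and macrophage markers from 53.2 to 64.6 to 71.8 to 96.8 CPM, while thick limb markers were lower, at 1375 to 2374 and 791 to 884 CPM. The part of these lists in the result was not tested. Without libraries holding Cyp11b1 at 1 CPM or more the rise of Agt was 3.67 ± 0.43 (adjusted p = 1.18e-05). Within series A, where 2 controls stood at 8.05 and 6.68 CPM, the log2 fold change was 3.79 ± 0.19.

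In male Atp6b1v1 pulldown Agt stood at 21.5, 24.6, 9.63 and 12.2 CPM in controls, at 11.5, 15.2 and 19.4 CPM after ischemia and at 22.1, 28.99, 59.7 and 44.2 CPM after volume depletion. Groups overlapped, and the volume depleted libraries fell into a lower and a higher pair. The log2 fold change was 1.20 ± 0.27 after volume depletion (adjusted p = 0.0054, edgeR), 2.30-fold, and -0.14 ± 0.30 after ischemia (adjusted p = 0.84). Agt was the one member called after volume depletion, 1 of 8 against 5.15% of all genes.

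That rise moved with the library series. The controls and volume depleted mice of series A stood at 21.5 and 24.6 against 22.1 and 28.99 CPM, and those of series B at 9.63 and 12.2 against 59.7 and 44.2 CPM. With series A alone the log2 fold change was 0.15 ± 0.17 (adjusted p = 0.67), and with series as a covariate it was 1.16 (adjusted p = 0.0040). Leaving out volume depleted replicate 6 gave 0.92 (adjusted p = 0.034), under the fold threshold. In the same males the summed adipocyte markers were 54.5 to 122 CPM in controls and 38.1 to 45.9 CPM after volume depletion, with 3 of 8 called lower, and the intercalated cell markers were 661 to 919 and 409.96 to 582 CPM, with 2 of 5 called lower. Neither of these overlapped between the groups. The hepatocyte markers were 13.9 to 40.4 and 20.9 to 26.5 CPM. Their part in the result was not tested.

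The response of Agt to volume depletion was smaller in male Atp6b1v1 than in male Hoxb7 pulldown by 2.52 ± 0.40 on the log2 scale (edgeR interaction, adjusted p = 0.0013), and 1 of 8 members was called in this difference against 2.93% of all genes. With both sexes in the fit and sex as a covariate, the difference was -0.36 ± 0.60 (adjusted p = 0.86).

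**Figure D2:**
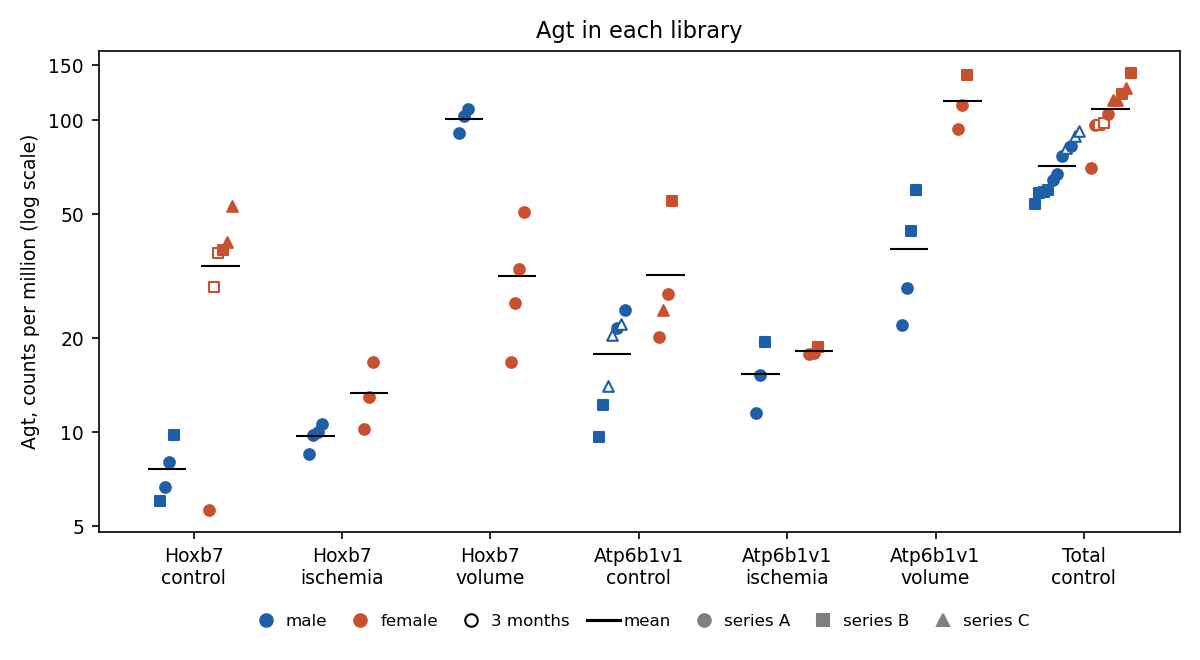
Agt in each library, in CPM on a log axis, by driver and treatment, with males in blue, females in orange, open symbols for mice of 3 months, symbol shape for the library series and a bar at the mean of each sex. The 3 volume depleted Hoxb7 males sit between 91.2 and 109.1 CPM, above all Hoxb7 male controls, and the female Hoxb7 controls range from 5.63 to 53.3 CPM.

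In Hoxb7 females no rise with volume depletion passed the test, and their controls were spread widely. Agt stood at 5.63, 38.5, 53.3 and 40.8 CPM in Hoxb7 control females, the first of series A and the others of series B and C, and at 29.3 and 37.6 CPM in control females of 3 months. After ischemia it was 13.0, 16.8 and 10.2 CPM, and after volume depletion 16.8, 25.99, 33.3 and 50.7 CPM, all of series A. The log2 fold changes were -0.13 ± 0.38 after volume depletion (adjusted p = 0.96) and -1.39 ± 0.44 after ischemia (adjusted p = 0.030). Within series A, which leaves 1 control female assumed to vary like the other groups, they were 2.503 ± 0.42 (adjusted p = 0.011) and 1.26 ± 0.40 (adjusted p = 0.24). Without that same control, replicate 1, they were -0.49 (adjusted p = 0.47) and -1.75 (adjusted p = 0.0012). The ischemia call was lost on leaving out control replicate 6, 9 or 10 or any of the 3 ischemic libraries, with -1.11 (adjusted p = 0.12) without control replicate 9.

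In Hoxb7 females 1 of 8 members was called after ischemia against 5.7% of all genes. No member was called after volume depletion, by edgeR or DESeq2, where 2 had an unadjusted p under 0.05 and 0.194% of genes were called. Among all tested genes 2226 had an unadjusted p under 0.05 there. Summed adrenal cortex markers were 29.9 to 439 CPM in these female controls and 17.9 to 28.5 CPM after volume depletion, and without libraries holding Cyp11b1 at 1 CPM or more the volume depletion value was -0.57 (adjusted p = 0.54).

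Female Atp6b1v1 mice did show the rise. Agt stood at 27.7, 20.2, 54.99 and 24.6 CPM in controls, at 17.9, 17.8 and 18.8 CPM after ischemia, and at 112, 93.9 and 140 CPM after volume depletion. The volume depleted libraries lay above every control and every ischemic library lay below. The log2 fold change was 1.86 ± 0.41 after volume depletion (adjusted p = 0.0012, edgeR), 3.64-fold, and -0.83 ± 0.42 after ischemia (adjusted p = 0.21). Within series A the rise was 2.13 ± 0.32 (adjusted p = 8.12e-04). Without libraries holding Cyp11b1, which leaves control replicate 13 and volume depleted replicate 5 alone, it was 2.51. After volume depletion 2 of 8 members were called, Agt and Agtr1a, against 11.8% of all genes. Summed intercalated cell markers were 418 to 617 CPM in these volume depleted females and 800 to 1206 CPM in controls. Endothelial, fibroblast and podocyte sums ran from 36.2 to 265, 11.9 to 113 and 57.7 to 286 CPM after volume depletion. In controls they ran from 133 to 273, 88.1 to 125 and 170 to 285 CPM. The part of these lists in the rise was not tested.

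The sexes differed in the Hoxb7 response of Agt to volume depletion by -3.86 ± 0.58 (female minus male, log2, adjusted p = 2.84e-04, against 10.8% of genes called) and to ischemia by -1.75 ± 0.59 (adjusted p = 0.049, against 6.98%), the 1 member called in each. With no filter on low counts the ischemia difference had an adjusted p of 0.055. Within series A these differences were -1.31 (adjusted p = 0.30) and 0.85 (adjusted p = 0.51). Among Hoxb7 controls Agt was higher in females by 2.19 ± 0.41 (adjusted p = 8.79e-04, the 1 member called against 2.01% of genes), and with series A alone the value was -0.38 (adjusted p = 1). In the Atp6b1v1 pool the response of Agt did not differ detectably between the sexes, at 0.67 ± 0.56 for volume depletion (adjusted p = 0.80) and -0.69 ± 0.59 for ischemia (adjusted p = 1). No gene of 21175 (0%) was called by edgeR in either of these differences, and 2 and 0 of the 8 members had an unadjusted p under 0.05. Over all tested genes 1756 and 676 had one. DESeq2 called no member. Control females and males of that pool differed in Agt by 0.91 ± 0.39 (adjusted p = 0.43), and no member was called there by edgeR or DESeq2, with 3 at an unadjusted p under 0.05 and 1.19% of genes called. Of all 21175 tested genes 1851 had an unadjusted p under 0.05.

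Ace went down after ischemia in the Atp6b1v1 pool. In males Ace (chr11:105967945-105989964) stood at 32.7, 35.8, 32.01 and 41.2 CPM in controls, at 6.67, 16.7 and 12.9 CPM after ischemia and at 17.9, 17.2, 24.8 and 15.8 CPM after volume depletion. All treated libraries lay below all controls. The fall after ischemia was 1.57 ± 0.24 on the log2 scale (adjusted p = 7.73e-04, edgeR), the 1 member called against 2.82% of all genes, and that after volume depletion was 0.89 ± 0.22 (adjusted p = 0.0084), under the fold threshold. With a replicate block, the ischemia value was -1.27 ± 0.38 (adjusted p = 0.13).

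Proximal tubule transcripts were also lower in the ischemic males of this pool. The summed proximal tubule markers were 1915 to 3728 CPM in the male Atp6b1v1 controls and 868 to 1212 CPM after ischemia, and 3 of 8 of these markers were called lower, Slc34a1 by -2.43, Slc5a12 by -2.37 and Slc7a13 by -1.51. In volume depleted males of the pool the sums were 1143 to 4263 CPM, overlapping the controls. Ischemic females had 586 to 2254 CPM against 1346 to 4225 CPM in their controls, with overlap. The part of these markers in the fall of Ace was not tested.

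In females of that pool Ace stood at 32.2, 30.7, 19.4 and 17.8 CPM in controls and at 13.4, 14.1 and 13.1 CPM after ischemia, again with no overlap, a change of -0.91 ± 0.28 (adjusted p = 0.034). Without libraries holding Cyp11b1, which leaves control replicate 13 and ischemic replicate 6 alone, Ace differed by -0.45. After volume depletion it was 31.2, 36.5 and 32.96 CPM, 0.43 ± 0.27 from control (adjusted p = 0.26). No member was called for ischemia in these females by edgeR or DESeq2, where 1 had an unadjusted p under 0.05 and 2.59% of genes were called. Among all tested genes 5350 had an unadjusted p under 0.05 there.

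Hoxb7 pulldown showed no such fall of Ace. Male libraries stood at 23.2, 25.3, 25.1 and 31.4 CPM in controls, at 32.7, 17.4, 25.6 and 19.8 CPM after ischemia and at 25.7, 26.96 and 27.5 CPM after volume depletion, with log2 fold changes of -0.13 ± 0.22 and 0.030 ± 0.23. The response of Ace to ischemia differed between the drivers by -1.44 ± 0.32 (Atp6b1v1 minus Hoxb7, adjusted p = 0.0098), 1 of 8 members against 3.49% of genes. With a replicate block that difference was -1.03 (adjusted p = 0.28).

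**Figure D3:**
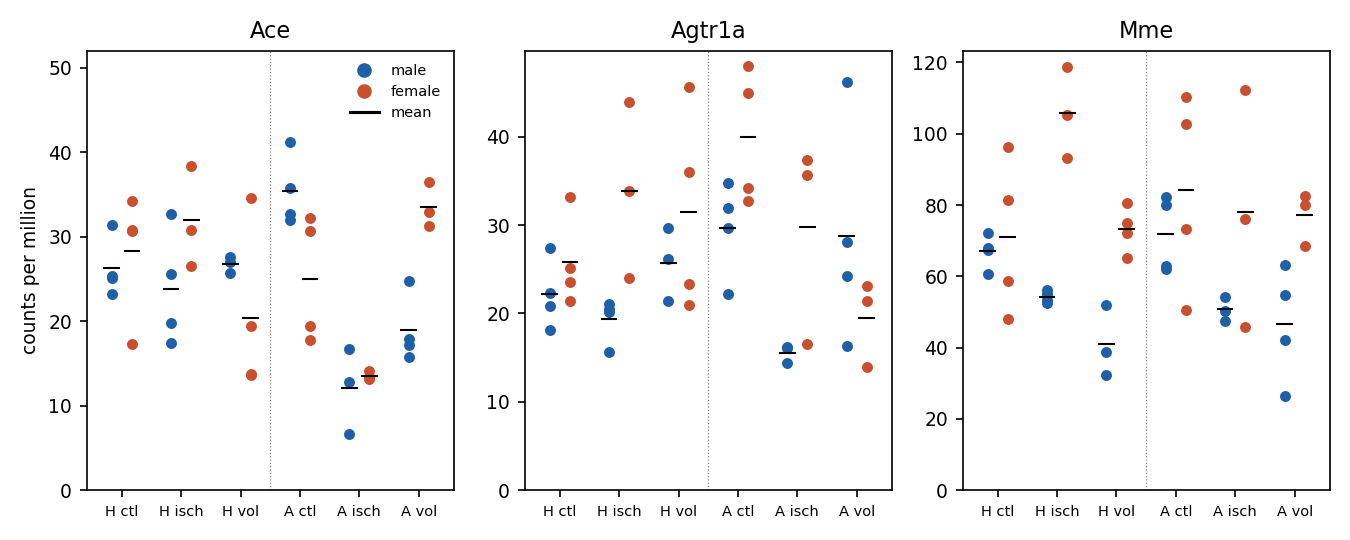
Ace, Agtr1a and Mme in pulldown libraries of 5.5 months, in CPM, with 1 point per library, males in blue and females in orange, and a bar at each mean. H and A on the horizontal axis stand for Hoxb7 and Atp6b1v1, and ctl, isch and vol for control, ischemia and volume depletion. Ischemic Atp6b1v1 males have Ace between 6.67 and 16.7 CPM against 32.01 to 41.2 CPM in their controls.

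Neprilysin was lower after volume depletion in males of both pools. In Hoxb7 males Mme (chr3:63241537-63386030) stood at 67.8, 72.1, 60.6 and 67.3 CPM in controls and at 51.96, 32.2 and 38.8 CPM after volume depletion, without overlap, a change of -0.70 ± 0.20 (adjusted p = 0.0088, edgeR). In Atp6b1v1 males it went from 80.1, 62.1, 82.2 and 62.8 CPM to 26.4, 42.2, 63.2 and 54.8 CPM, with overlap, a change of -0.61 ± 0.19 (adjusted p = 0.029). Neither reached the fold threshold, but with series A alone the Atp6b1v1 value was -1.06 (adjusted p = 0.0061) and did. With a replicate block they were -0.76 (adjusted p = 0.053) and -0.64 (adjusted p = 0.23), and without libraries holding Cyp11b1 the Hoxb7 value was -0.65 (adjusted p = 0.059). Ischemic males stood at -0.29 ± 0.18 (Hoxb7, adjusted p = 0.40) and -0.51 ± 0.20 (Atp6b1v1, adjusted p = 0.12). Their libraries too lay below all controls in both pools, at 52.5 to 56.0 CPM in Hoxb7 and 47.5 to 54.2 CPM in Atp6b1v1 pulldown. Volume depletion differed from ischemia by -0.41 ± 0.20 (Hoxb7, edgeR adjusted p = 0.12) and -0.099 ± 0.20 (Atp6b1v1, adjusted p = 0.77). Neither difference between the injuries passed the test. In females after volume depletion Mme differed from control by 0.036 ± 0.23 in Hoxb7 and -0.12 ± 0.25 in Atp6b1v1 pulldown, neither past the test.

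Aminopeptidase A passed no test in males. Enpep (chr3:129269175-129332720) ran from 27.95 to 35.4 CPM in male Hoxb7 controls, from 30.6 to 48.0 CPM after ischemia and from 30.9 to 41.99 CPM after volume depletion. In male Atp6b1v1 mice it ran from 20.5 to 37.5 CPM in controls, 19.9 to 25.2 CPM after ischemia and 21.5 to 39.2 CPM after volume depletion. The 4 log2 fold changes lay between -0.41 and 0.26.

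In female Hoxb7 mice Enpep stood at 49.0, 19.6, 17.6 and 19.0 CPM in controls and at 39.1, 34.9 and 76.9 CPM after ischemia, a difference of 0.93 ± 0.30 (adjusted p = 0.038). The high control was the series A library that was low in Agt. Without it the difference was 1.41 (adjusted p = 0.0012), and within series A, with that control alone, it was 0.055 (adjusted p = 1).

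The main angiotensin receptor was lower after ischemia in male Atp6b1v1 mice. Agtr1a (chr13:30336441-30382867) stood at 31.95, 34.8, 29.7 and 22.2 CPM in controls, at 16.1, 14.4 and 16.2 CPM after ischemia and at 46.2, 28.1, 16.4 and 24.2 CPM after volume depletion. Every ischemic library lay below every control, and volume depleted libraries spread over both. The change after ischemia was -0.93 ± 0.24 (adjusted p = 0.018, edgeR), under the fold threshold, and -1.36 (adjusted p = 0.11) with a replicate block. It was past that threshold with series A alone (-1.14, adjusted p = 0.0033) and without control replicate 11 (-1.05, adjusted p = 0.017). Volume depletion exceeded ischemia by 0.91 ± 0.24 (adjusted p = 0.0058), and the excess was past the fold threshold with series A alone (1.29, adjusted p = 2.64e-04) and without volume depleted replicate 6 (1.10, adjusted p = 7.46e-04). Between these 2 injuries Agt was the 1 member called in each pool, with 14.7% of genes called in the Hoxb7 pool and 11.6% in the Atp6b1v1 pool. With series A alone the Atp6b1v1 value of Agt was 0.95 (adjusted p = 5.15e-04), under the fold threshold, and Agtr1a was the 1 member called there.

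Female Atp6b1v1 mice had Agtr1a at 44.9, 48.0, 32.7 and 34.2 CPM in controls, 35.6, 37.3 and 16.5 CPM after ischemia and 21.4, 23.1 and 14.0 CPM after volume depletion. The volume depleted libraries all lay below the controls, at -1.02 ± 0.29 (adjusted p = 0.0075), while the ischemic ones overlapped them at -0.44 ± 0.28 (adjusted p = 0.33). Leaving out volume depleted replicate 5 gave -0.83 (adjusted p = 0.059), and leaving out control replicate 7 or 8 put the value under the fold threshold, at -0.96 and -0.92. Without libraries holding Cyp11b1, which leaves control replicate 13 and volume depleted replicate 5 alone, it was -1.29. Male volume depleted mice of this pool stood at -0.022 ± 0.21, and the difference between the sexes was -0.99 ± 0.38 (adjusted p = 0.53). In Hoxb7 males Agtr1a ran from 18.2 to 27.4 CPM in controls, 15.6 to 21.0 CPM after ischemia and 21.4 to 29.7 CPM after volume depletion, and neither change passed the test.

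Agtr1b, the minor type 1 receptor (chr3:20314473-20367177), had 167 reads in all 69 libraries and no more than 5 in any male library, so no fold change is given. Its highest counts were in females with adrenal cortex transcripts. In total RNA the female library with the most Cyp11b1, at 195 CPM, had 18 reads of Agtr1b. All 6 female total libraries at 1 CPM of Cyp11b1 or more ran from 1 to 18 reads (median 2.5). The 4 female ones under 1 CPM ran from 2 to 4 (median 3). Between 0 and 2 reads were counted in each of the 11 male ones. In pulldown RNA the 12 female libraries with Cyp11b1 at 1 CPM or more had 0 to 12 reads, with a median of 4, and the 11 others 0 to 6, with a median of 2. Total and pulldown libraries could come from the same mice. The part of adrenal RNA in these counts was not tested.

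**Figure D4:**
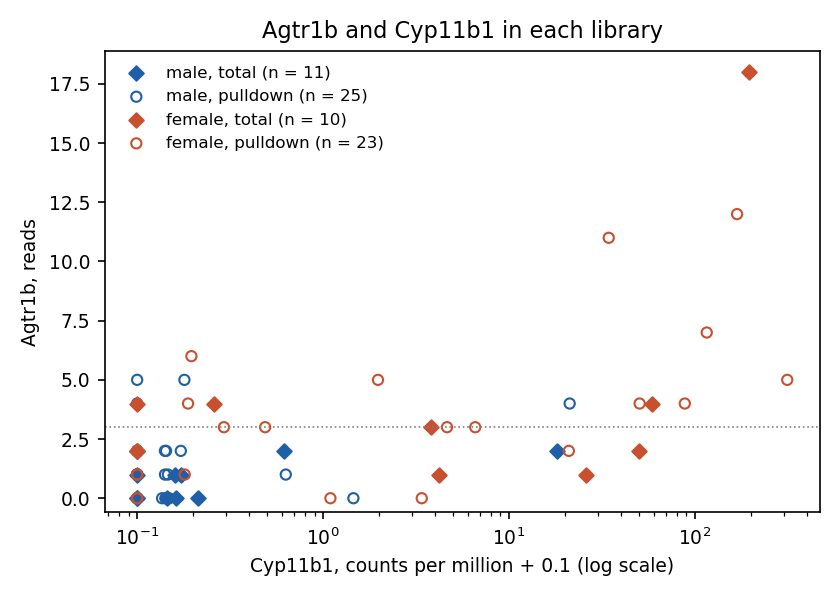
Reads of Agtr1b against Cyp11b1 in CPM plus 0.1 on a log axis, with 1 point per library, filled diamonds for total kidney RNA and open circles for pulldown RNA, males in blue and females in orange. The dotted line marks 3 reads. Counts above 6 reads occur in 4 female libraries only, all with Cyp11b1 over 1 CPM.

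The prorenin receptor gene passed no test after injury in males. Atp6ap2 (chrX:12587801-12617049) stood between 73.3 and 94.3 CPM in male Hoxb7 controls, 63.3 and 72.7 CPM after ischemia and 75.4 and 91.3 CPM after volume depletion. In male Atp6b1v1 mice it was 70.2 to 90.2 CPM in controls, 67.7 to 135 CPM after ischemia and 69.5 to 105.5 CPM after volume depletion. The log2 fold changes were -0.26 ± 0.16, 0.0029 ± 0.17, 0.32 ± 0.17 and 0.14 ± 0.16, and none passed the test.

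**Figure D5:**
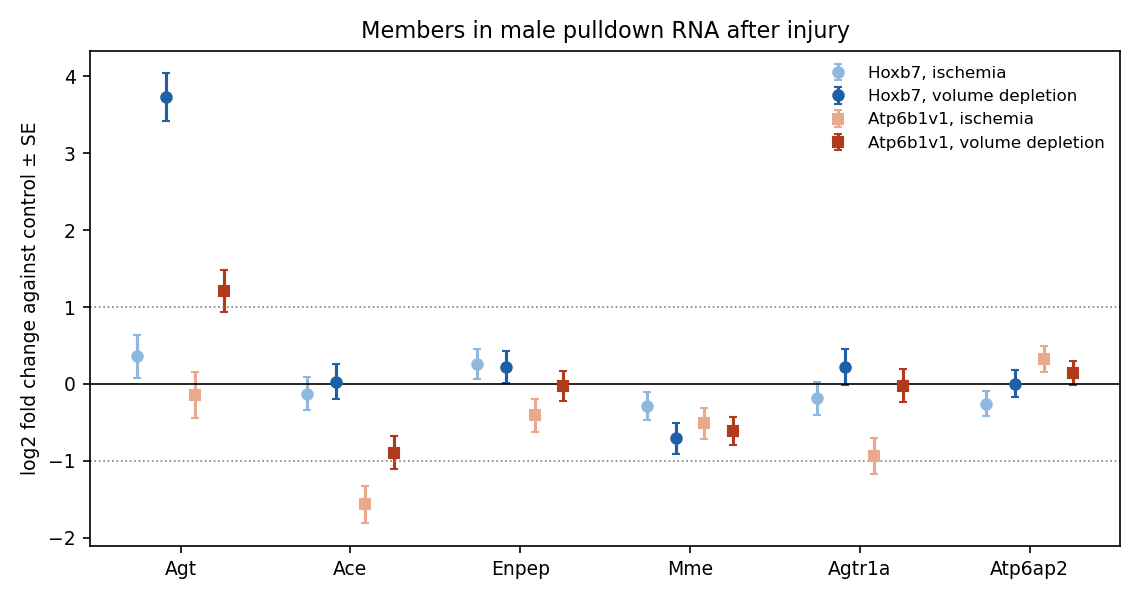
Log2 fold change against control of 6 members in male pulldown RNA, with bars of 1 SE, for both drivers and both injuries. Dotted lines mark a log2 fold change of 1 in size. Agt after volume depletion lies above the upper line in both pools (3.73 and 1.20) and Ace after ischemia in the Atp6b1v1 pool lies below the lower line (-1.57).

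Other enzymes and receptors of the pathway were read through a list of 19 genes, of which 18 were tested. After volume depletion in Hoxb7 males 0 of 18 were called higher and 2 lower, where 9.61% of all genes were called higher and 16.4% in either direction. Of the 18 genes 9 had an unadjusted p under 0.05, as did 9220 of all 21175 tested genes. The genes called lower were Thop1, a metalloendopeptidase, at -1.07 ± 0.29 (adjusted p = 0.0051), and Lnpep, the angiotensin IV binding aminopeptidase, at -1.01 ± 0.27 (adjusted p = 0.0059). The median of the list was -0.50 against 0 over all genes. In Atp6b1v1 males 1 of 18 was called, against 5.15% of all genes, namely Prcp, a carboxypeptidase that cuts angiotensin II, at -1.02 ± 0.17 (adjusted p = 5.47e-04), with a list median of -0.30.

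After ischemia none of the 18 was called in either pool of males by edgeR, with 2 at an unadjusted p under 0.05 in each and 2.3% (Hoxb7) and 2.82% (Atp6b1v1) of all genes called. Among all tested genes 4364 (Hoxb7) and 5066 (Atp6b1v1) had an unadjusted p under 0.05. Volume depletion against ischemia called Lnpep (-1.22) and Mas1, the angiotensin-(1-7) receptor (-1.67), in the Hoxb7 pool and Klk1, tissue kallikrein (-1.26), in the Atp6b1v1 pool, and the response of Klk1 to volume depletion differed between the drivers by -1.58 (adjusted p = 0.027). Male pulldown libraries held at most 0.0968 CPM of Cma1, at most 0.043 of Mrgprd and at most 0.162 of Agtr2, so their fitted changes, though the largest of the list in several comparisons, are not given.

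Of 10 genes with known roles in the control of renin cells, Ptgs2, the inducible prostaglandin synthase, rose with volume depletion in males of both pools. Its median went from 6.88 to 39.9 CPM in Hoxb7 males (log2 fold change 2.76 ± 0.43, adjusted p = 3.44e-05) and from 4.64 to 25.1 CPM in Atp6b1v1 males (2.25 ± 0.41, adjusted p = 0.0011). Adrb1, the beta-1 adrenergic receptor, rose by 1.56 in the Hoxb7 pool, and Akr1b7 and Adora1, the adenosine A1 receptor, rose by 1.61 and 1.22 in the Atp6b1v1 pool. In all 2 of 10 were called higher in Hoxb7 males, against 9.61% of all genes called higher, and 3 of 10 in Atp6b1v1 males, against 5.15% called in either direction, with list medians of 0.31 and 0.50. Against ischemia Vdr, the vitamin D receptor, was also higher, by 1.10, in the Atp6b1v1 pool. None of the list was called after ischemia against control, where Akr1b7 (-1.32, adjusted p = 0.072) in Hoxb7 and Ptgs2 (0.57, adjusted p = 0.46) in Atp6b1v1 males had the largest values and 2 and 1 genes had an unadjusted p under 0.05. In those comparisons 4364 and 5066 of all tested genes had one. Between the drivers Akr1b7 had the largest difference of the list, 1.45 for ischemia (adjusted p = 0.17) and 2.17 for volume depletion (adjusted p = 0.056), neither past the test.

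Among 9 genes that steroid hormones are known to act on or through, Sgk1, an aldosterone and glucocorticoid target kinase, rose by 1.93 ± 0.30 in Hoxb7 and 2.06 ± 0.29 in Atp6b1v1 males after volume depletion, and Per1, a clock gene, by 2.73 ± 0.31 and 1.71 ± 0.29. Tsc22d3 (1.26) and Zbtb16 (1.70), both glucocorticoid targets, were called in the Hoxb7 pool. Tsc22d3 responded less in the Atp6b1v1 pool, by 1.06 (adjusted p = 0.010). Hsd11b2, which inactivates glucocorticoids in principal cells, fell by 1.54 in Hoxb7 males after volume depletion and by 1.00 after ischemia, while it rose by 1.01 after ischemia in Atp6b1v1 males (adjusted p = 0.046). That difference between drivers was 2.01 (adjusted p = 0.0081), and Zbtb16 differed there by -1.06 (adjusted p = 0.023). The list counted 4 higher and 1 lower of 9 called in Hoxb7 males after volume depletion, against 16.4% of all genes called, and 2 higher in Atp6b1v1 males, against 5.15%. After ischemia 1 of 9 was called in each pool, against 2.3% and 2.82% of all genes.

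Over the 43 pulldown libraries of 5.5 months and 13934 genes with a mean of at least 1 CPM, the gene most like Agt was Slc3a2, the heavy chain of amino acid transporters (Pearson r = 0.898), followed by Chchd7 (0.894) and Ppp2r2d (0.886). Ace was most like Ttc36 (0.766), Zmynd10 (0.719) and Apom (0.716), Agtr1a most like Ttc7b (0.794), Cldn2 (0.718) and Dpep1 (0.71), and Enpep most like Myrf (0.843), Slc4a4 (0.841) and Pitrm1 (0.825). Mme was most like Sim1 (0.79), Enah (0.777) and Slc16a7 (0.771), and Atp6ap2 most like Laptm4a (0.878), Emc7 (0.87) and Itm2b (0.866). The points share groups, series and depth, and the values are descriptions.

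In total kidney RNA the members differed by sex in modest steps. Mme was higher in females, with a lowest, median and highest of 335, 454 and 635 CPM in 10 females against 224, 260 and 320 CPM in 11 males, without overlap, a log2 difference of 0.84 ± 0.085 (female minus male with age as a covariate, adjusted p = 3.48e-08). Agt stood at 70.3, 110 and 142 CPM in females and 54.1, 67.04 and 92.4 CPM in males, with overlap, 0.67 ± 0.11 (adjusted p = 2.86e-05). Atp6ap2, an X-linked gene, was higher by 0.25 ± 0.052 (adjusted p = 5.56e-04).

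Ace was lower in females, at 219, 261 and 359 CPM against 311, 372 and 463 CPM, a difference of -0.40 ± 0.091 (adjusted p = 0.0014). Enpep was lower by 0.34 ± 0.12 (adjusted p = 0.039), and Agtr1a did not differ beyond its spread, at 0.097 ± 0.056 (adjusted p = 0.20). The one member past the fold threshold, of 8 against 5.85% of all genes, was Agtr1b, whose male libraries all held 2 reads or fewer, and with mice of 5.5 months alone no member was called. Of the pathway list Mas1 was lower in females by 3.03 and Agtr2 higher by 2.55, of the renin cell list Akr1b7 and Ptgs2 were higher by 2.29 and 1.13, and of the steroid list Sgk1 was higher by 1.07. Akr1b7 is known from the adrenal cortex too, and 5 of 6 adrenal cortex markers were called higher in females in the same comparison.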

How the data were processed

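The libraries were made from poly(A) RNA with an Illumina TruSeq kit, either of biotinylated 4-TU RNA eluted from streptavidin beads or of whole kidney RNA. The authors deposited raw counts of reads per gene symbol, made from reads trimmed with Trimmomatic 0.36, aligned to mm10 with STAR 2.5.3a and counted with HTSeq 0.6.1p2, per the labels and the submitters' processing notes. The gene annotation is not given in the sources used here, nor is a strand setting.

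From these counts, genes with fewer than 2 reads over all libraries were left out (21175 of 24411 stayed), and edgeR 4.0.16 (R 4.3.3) quasi-likelihood tests with TMM scaling and Benjamini-Hochberg adjustment over all tested genes were run in 4 fits. These were 22 male pulldown libraries by driver and treatment, 42 control libraries by pool with sex as a covariate, 43 pulldown libraries of 5.5 months by driver, treatment and sex, and 21 total libraries by sex with age as a covariate. A gene was called at an adjusted p under 0.05 with a change of 1 or more on the log2 scale, and no fold was given for Ren1 and Agtr1b, whose groups lay at or near a floor of 3 reads. Printed CPM values are counts per 1000000, scaled by TMM over all 69 libraries, and ± gives SD for levels and SE for log2 fold changes. Levels between genes were divided by the union of GENCODE vM21 exons. The scripts were tested on simulated data.

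The members, the lists and the tests were chosen with earlier results of these data known. The genes named are all 8 members, every gene of the 3 pathway lists called in a male injury comparison or between the sexes in total RNA together with the largest change of each list in each of these comparisons, and the 3 genes most like each member over 43 libraries. Alternatives were DESeq2 1.42.0, its size factors, no filter, no fold threshold, other covariates and subsets, and leaving out each library. Another 2 were added after the data were seen, leaving out libraries with Cyp11b1 at 1 CPM or more before TMM scaling and keeping series A alone.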

Additional observations from a re-analysis of the deposited data

Results flagged for a closer look

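Among the members, 2 libraries stood apart from the rest of their group by Dixon's ratio, of 54 groups of 4 to 10 libraries looked at, and chance alone flags about 1 group in 20. Agtr1a in male Hoxb7 ischemia replicate 5 was the lowest of its group at 15.6 CPM. Enpep in female Hoxb7 control replicate 1 was the highest of its group at 49.0 CPM.

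Responses that differed between drivers or sexes by a test of the difference were that of Agt to volume depletion between the drivers in males (-2.52, Atp6b1v1 minus Hoxb7, log2), that of Ace to ischemia between the drivers in males (-1.44), and those of Agt in the Hoxb7 pool between the sexes, to volume depletion (-3.86, female minus male) and to ischemia (-1.75). For the differences of Agt between the sexes, the Hoxb7 control females were of 3 library series and the treated ones of series A alone.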

How the results depend on the processing

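Of the values recomputed under alternatives other than leaving out a library, 597 kept their direction and side of the threshold, 20 reversed, 16 fell under it, 9 passed it and 32 moved, and for single libraries left out 1346 kept both. The causes were not tested. Counts of members called under these alternatives are given without the share of all genes at the same setting. They describe only how stable the calls were. Agt in the Hoxb7 volume depletion males lay between 3.64 and 3.88 over 22 single libraries left out, Agt in the Atp6b1v1 volume depletion males between 0.92 and 1.43, and Ace in the Atp6b1v1 ischemia males between -1.86 and -1.25. No fold is given for Ren1 and Agtr1b, which had 3 and 167 reads in all 69 libraries.

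Same-numbered libraries of different groups had a mean correlation of deviations of -0.102 (6 Hoxb7 pairs) and -0.119 (2 Atp6b1v1 pairs). These pairs are too few to tell whether a number stands for more than a name. The replicate block left 7 residual degrees of freedom, against 16 in the main fit of males. With the replicate block, Agt after volume depletion was 3.54 (Hoxb7, adjusted p = 1.78e-06) and 1.22 (Atp6b1v1, adjusted p = 0.014), Ace after ischemia in the Atp6b1v1 pool was -1.27 (adjusted p = 0.13), its difference between the drivers -1.03, and 0 members were called in either of the last 2 comparisons. Ace and Atp6ap2 after volume depletion in the Hoxb7 pool reversed under the block, at -0.070 and -0.13.

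With both sexes in the fit, reversals in the Hoxb7 pool were Agt (-0.70), Agtr1a (0.076) and Mme (0.098) after ischemia and Ace (-0.24) after volume depletion. Enpep after volume depletion in the Atp6b1v1 pool (0.10) and the difference of Agt between drivers after ischemia (0.22) reversed as well, and 0 members were called in the volume depletion difference between drivers. With library series as a covariate, Atp6ap2 in Hoxb7 males (-0.029) and Agt in Hoxb7 females (0.51) after volume depletion reversed, 2 members were called in the volume depletion difference between drivers, and 0 in the female Hoxb7 ischemia comparison and in its difference between the sexes.

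With series A alone, Agt in Atp6b1v1 males after volume depletion was 0.15 (adjusted p = 0.67). After volume depletion Atp6ap2 in the Hoxb7 pool (-0.030) and Agtr1a (0.15) and Atp6ap2 (-0.25) in the Atp6b1v1 pool reversed. Agt reversed in Hoxb7 females after ischemia (1.26) and volume depletion (2.503), in the difference between the sexes after ischemia (0.85 in Hoxb7, 0.35 in Atp6b1v1) and between control Hoxb7 females and males (-0.38). Members called became 2 in the Atp6b1v1 ischemia comparison and in the ischemia difference between drivers, 1 in female Hoxb7 volume depletion and female Atp6b1v1 ischemia, and 0 in female Hoxb7 ischemia, both Hoxb7 differences between the sexes and the Hoxb7 control sexes.

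Without libraries holding Cyp11b1 at 1 CPM or more, Ace in Hoxb7 males after volume depletion reversed (-0.084), and 1 member was called in female Hoxb7 volume depletion. That cut left 1 library in a group of the female Hoxb7 ischemia and female Atp6b1v1 comparisons, so no counts are given for these. Agt between the pulldown pools reversed in females alone (-0.11), and males alone gave 1 member called. With no fold threshold the members called were 2 in Hoxb7 volume depletion, 2 in Atp6b1v1 ischemia, 3 in Atp6b1v1 volume depletion, 3 in its contrast with ischemia, 1 between the pulldown pools, 2 in female Hoxb7 ischemia, 1 in female Atp6b1v1 ischemia and 6 between the sexes in total RNA. Many genes differ at any fold change. An unadjusted p under 0.05 was held by 9220 of 21175 tested genes in male Hoxb7 volume depletion. Between the sexes in total RNA 8731 had one. DESeq2 and its size factors each called 1 member in female Atp6b1v1 volume depletion, its size factors and the absence of a filter each left 0 in the Hoxb7 ischemia difference between the sexes, and mice of 5.5 months alone left 0 between the sexes in total RNA.

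Leaving out single libraries turned the direction of some small values, whose ranges were -0.028 to 0.14 for Ace and -0.088 to 0.076 for Atp6ap2 in Hoxb7 males after volume depletion, -0.34 to 0.083 for Agt in Atp6b1v1 males after ischemia, and -0.35 to 0.17 for Agtr1a and -0.21 to 0.093 for Enpep in Atp6b1v1 males after volume depletion. In females after volume depletion they were -0.49 to 0.15 for Agt in the Hoxb7 pool, and -0.17 to 0.18 for Atp6ap2 and -0.30 to 0.040 for Mme in the Atp6b1v1 pool. Members called ranged from 1 to 2 in Atp6b1v1 ischemia, its contrast with volume depletion and female Atp6b1v1 volume depletion, from 0 to 2 in female Hoxb7 ischemia, from 0 to 3 in the Hoxb7 ischemia difference between the sexes, and from 0 to 1 in female Hoxb7 volume depletion and female Atp6b1v1 ischemia.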
